A study of Mus musculus with 18 samples.

Results

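Kit, a receptor tyrosine kinase, and Kitl, the ligand that binds it, were followed in the ovaries of F1 female mice. They were picked by gene symbol, as 2 of the 30172 genes listed in each library, and each symbol named 1 row. RNA came from whole ovaries of wild-type C57BL/6J females on day 3, day 7 or day 21 after birth, here Pd3, Pd7 and Pd21, with 3 libraries for each diet and day and 18 in all. The mothers of the F1-HHcy group ate a diet with 3% methionine, which raises plasma homocysteine, and those of the F1-Control group ate normal chow. The labels put the start of the diet 4 weeks before mating and carry it through gestation and lactation, and the daughters themselves received no treatment. Pd3 and Pd7 libraries belonged to batch 1 and Pd21 libraries to batch 2, so that every diet comparison lay within a batch. Whether a library held the ovaries of 1 pup or of several, and whether pups shared a litter, was not given, and p-values therefore measure only the spread between these libraries.

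Kit sits on the surface of the oocyte, from the primordial follicle onward, and Kitl is made by the granulosa cells around it. When Kitl binds, Kit pairs up and phosphorylates itself, and the signal runs through PI3K and AKT, which moves the brake FOXO3 out of the oocyte nucleus, and through RAS and MAPK. The pair is known for oocyte survival, the waking of primordial follicles and the recruitment of theca cells. Theca and interstitial cells of the ovary also carry Kit, as do mast cells, melanocytes and blood progenitors.

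Kit (ENSMUSG00000005672.12) lies on the plus strand at chr5:75574916-75656722 and Kitl (ENSMUSG00000019966.18) on the plus strand at chr10:100015630-100100416, in GENCODE vM21 on GRCm38. Both genes make variants that a value per gene adds up. The sequences that set the main variants apart are shown because the values below cannot tell them apart. In Kitl, exon 6 (chr10:100080857-100080940, 84 bases, all coding) holds the site at which proteases free the soluble ligand. It is part of transcript Kitl-202 and absent from Kitl-201, which yields the form that mostly stays on the membrane. In Kit, the last 12 bases of exon 9 (chr5:75639147-75639158) are coding in Kit-201 and missing from Kit-204, which gives receptors with and without a short insert outside the membrane. Capitals mark the variable bases and lower case the 18 coding bases on either side, read from the GENCODE transcripts in the 5′ to 3′ direction.
Kitl-202, exon 6: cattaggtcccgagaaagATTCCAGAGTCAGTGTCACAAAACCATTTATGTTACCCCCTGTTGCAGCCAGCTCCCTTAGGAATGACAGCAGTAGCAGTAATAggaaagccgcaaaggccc
Kit-201, end of exon 9: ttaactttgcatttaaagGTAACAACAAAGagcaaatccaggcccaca

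Values are FPKM, which scale the fragments on a gene by its length and by the total of the library, so that levels of both genes can be set side by side. From 33630640 to 39399280 fragments lay on genes in each library. Kit rested on 2674 to 13420 fragments and Kitl on 6305 to 13165, so counting error was small beside the spread between libraries. Diet effects were tested with limma on log2(FPKM + 1), for each day separately. A gene was called when its unadjusted p was under 0.05 and its log2 fold change above 0.58 in size. The p-values of limma were also adjusted by the Benjamini-Hochberg method over every gene tested on the day.

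Kit was highest in the F1-Control ovaries at Pd3 and was lower in F1-HHcy at Pd3 and Pd7, but not at Pd21. At Pd3 the F1-Control libraries held 73.5, 63.7 and 70.0 FPKM of Kit and the F1-HHcy libraries 20.5, 36.5 and 65.5 FPKM. F1-HHcy replicates 1 and 2 lay far below all controls, while F1-HHcy replicate 3 lay within the control range, so the groups overlapped. The means were 69.1 ± 5.02 and 40.9 ± 22.8 FPKM (SD, n = 3 each). The log2 fold change was -0.89 (SE 0.36, 95% interval -1.72 to -0.062), with an unadjusted p of 0.0383 and an adjusted p of 0.198 from limma, and Kit was called lower by the first criterion only. Of all genes tested at Pd3, 4.74% were called lower. This call rested on all libraries but F1-HHcy replicate 3. It was lost on leaving out any of the other 5, with a log2 fold change of -0.49 without F1-HHcy replicate 1 as the smallest, and it was -1.30 (adjusted p = 0.0058, limma) without F1-HHcy replicate 3.

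At Pd7 Kit stood at 42.0, 27.4 and 25.7 FPKM in F1-Control and at 15.3, 15.3 and 23.1 FPKM in F1-HHcy. All 3 F1-HHcy libraries were below all 3 controls, a separation toward lower values that 19.5% of the genes tested at Pd7 also had. The means were 31.7 ± 8.97 and 17.9 ± 4.51 FPKM (SD, n = 3 each), a log2 fold change of -0.78 (SE 0.22, 95% interval -1.27 to -0.29) with an adjusted p of 0.0477 from limma. Over the other settings and left-out libraries that adjusted p ran from 0.0354 to 0.165 (limma). Kit was called lower, beside 7.35% of all genes tested on that day. Without F1-Control replicate 1, the highest of the 6, the log2 fold change was -0.56, under the threshold in size.

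At Pd21 Kit measured 21.5, 17.0 and 20.0 FPKM in F1-Control and 25.3, 15.8 and 19.6 FPKM in F1-HHcy. The groups lay on top of each other. The log2 fold change was 0.035 (SE 0.19, 95% interval -0.40 to 0.47) with an adjusted p of 1.00 from limma. Markers of oviduct and ciliated cells summed to 104 to 503 FPKM in the F1-Control libraries at Pd21 and to 9.33 to 15.3 FPKM in F1-HHcy, and all 7 of the markers tested were called lower, where 5.14% of all genes were called in either direction. Their part in the Pd21 values of Kit and Kitl was not tested.

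**Figure D1:**
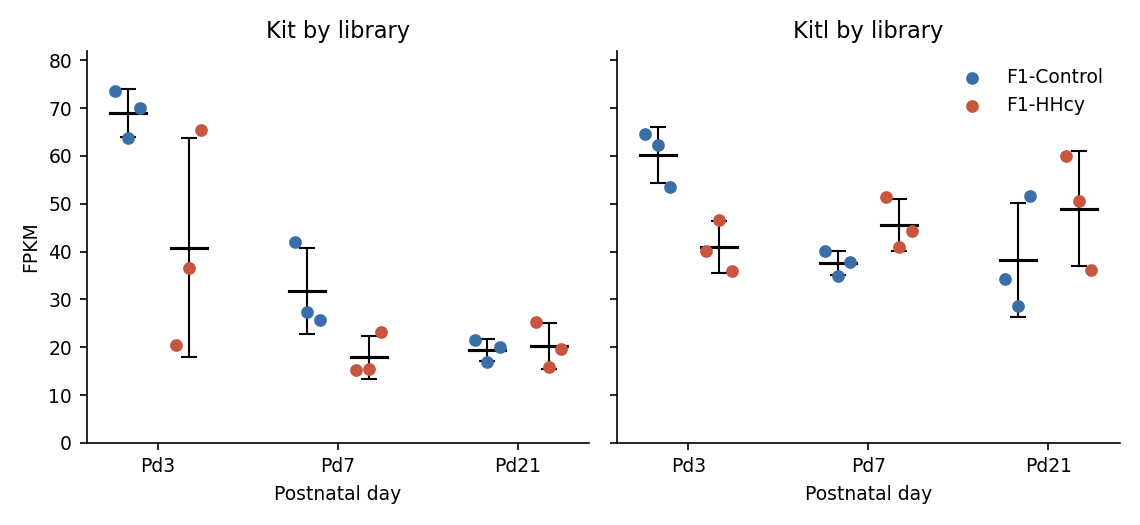
FPKM of Kit (left) and Kitl (right) in each of the 18 libraries by postnatal day, with F1-Control in blue and F1-HHcy in red; points are libraries, lines the means and bars the SD of 3 libraries. Kit in F1-HHcy at Pd3 spreads from 20.5 to 65.5 FPKM, and Kitl in F1-HHcy lies below every control at Pd3 and above every control at Pd7.

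Kitl was lower in every F1-HHcy library than in every control at Pd3 and higher in every one at Pd7, and it passed the call on no single day. At Pd3 it measured 64.7, 62.3 and 53.6 FPKM in F1-Control and 40.2, 46.6 and 36.0 FPKM in F1-HHcy. No F1-HHcy library reached the lowest control, as was true in this direction of 16.1% of genes tested at Pd3. The means were 60.2 ± 5.82 and 40.9 ± 5.35 FPKM (SD, n = 3 each). The log2 fold change was -0.55 (SE 0.13, 95% interval -0.85 to -0.25) with an unadjusted p of 0.00321 and an adjusted p of 0.0642 from limma, so Kitl passed the p criterion and missed the size criterion. It passed both criteria once F1-Control replicate 3 (-0.63) or F1-HHcy replicate 2 (-0.64) was left out.

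At Pd7 Kitl was at 40.0, 34.9 and 37.8 FPKM in F1-Control and at 51.5, 40.9 and 44.3 FPKM in F1-HHcy. All F1-HHcy libraries were above all controls, by less than 1 FPKM at the nearest pair, as were those of 19.5% of genes tested at Pd7. The log2 fold change of 0.27 (SE 0.14, 95% interval -0.050 to 0.58) did not pass, with an adjusted p of 0.223 from limma. At Pd21 Kitl was at 34.2, 28.7 and 51.6 FPKM in F1-Control and at 60.1, 50.6 and 36.2 FPKM in F1-HHcy. The ranges overlapped, with F1-Control replicate 3 high and F1-HHcy replicate 3 low in their groups. The log2 fold change was 0.36 (SE 0.25, 95% interval -0.22 to 0.94; adjusted p = 1.00, limma), and it was 0.60 and past both criteria without F1-Control replicate 3.

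Ordered by group mean, Kit ran from 69.1 FPKM in F1-Control at Pd3 to 40.9 in F1-HHcy at Pd3 and 31.7 in F1-Control at Pd7, and then to 20.3 in F1-HHcy at Pd21, 19.5 in F1-Control at Pd21 and 17.9 in F1-HHcy at Pd7. Only the step from F1-Control at Pd7 to F1-HHcy at Pd21 had no overlap between neighbours, with 25.7 FPKM as the lowest library above and 25.3 as the highest below. The F1-HHcy libraries at Pd7, at 15.3 to 23.1 FPKM, lay within the range of the 6 libraries at Pd21 or just under it. Kitl ran from 60.2 FPKM in F1-Control at Pd3 through 48.9, 45.6 and 40.9 FPKM in F1-HHcy at Pd21, Pd7 and Pd3 to 38.1 and 37.6 FPKM in F1-Control at Pd21 and Pd7. Every neighbouring pair of Kitl groups overlapped. Among genes at 1 FPKM or more in all 3 libraries of a group, the mean of Kit stood at percentile 92.8 in F1-Control at Pd3 and at percentile 70.3 in F1-HHcy at Pd7, while Kitl kept between percentiles 85.3 and 91.5.

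The change from Pd3 to Pd7, which both belong to batch 1, was tested in a model of all 6 groups on the 18 libraries with 14607 genes. These changes share their libraries with the diet effects above and are not independent of them. In F1-Control both genes fell, with no overlap between the days. Kit had a log2 change of -1.13 (SE 0.30, adjusted p = 0.0260, limma) and Kitl of -0.66 (SE 0.20, adjusted p = 0.0400, limma), where 6.89% of genes were called lower at Pd7 and 21.6% had no overlap in that direction. With the replicate number as a block the adjusted p of Kitl was 0.0503 (limma) and both calls by unadjusted p and size stood. In F1-HHcy Kit had a log2 change of -1.02 (SE 0.30, unadjusted p = 0.00360, adjusted p = 0.0571, limma), called lower beside 6.03% of genes, although F1-HHcy replicate 1 at Pd3 overlapped the Pd7 range. Without that library the log2 change was -1.42, and it was -0.61 without F1-HHcy replicate 3 at Pd3, still called. Kitl in F1-HHcy had a log2 change of 0.15 (SE 0.20, 95% interval -0.26 to 0.57; adjusted p = 0.689, limma).

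The diet effect on Kitl was called different between Pd3 and each later day, by unadjusted p and size only, when the difference itself was tested. From Pd3 to Pd7 its log2 diet effect moved by 0.81 (SE 0.28, 95% interval 0.23 to 1.40, unadjusted p = 0.00953, adjusted p = 0.222, limma), a shift toward higher values that 4.75% of genes were called with. This same quantity is the difference between the Pd3 to Pd7 change of Kitl in F1-HHcy and in F1-Control. From Pd3 to Pd21 it moved by 0.91 (SE 0.28, unadjusted p = 0.00451, adjusted p = 0.0795, limma), beside 4.00% of genes called. The call by unadjusted p and size held for both on leaving out any 1 of the 12 libraries involved. For Kit the difference was 0.11 between Pd3 and Pd7 (SE 0.43, 95% interval -0.79 to 1.01), an interval too wide to tell the days apart. Between Pd3 and Pd21 it was 0.93 (SE 0.43, unadjusted p = 0.0445, adjusted p = 0.293, limma), called in this fit and lost on leaving out 9 of the 12 libraries, with 0.52 without F1-HHcy replicate 1 at Pd3. Between Pd7 and Pd21 it was 0.81 (SE 0.43, adjusted p = 0.303, limma) and not called. Age and batch cannot be told apart in any comparison with Pd21.

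**Figure D2:**
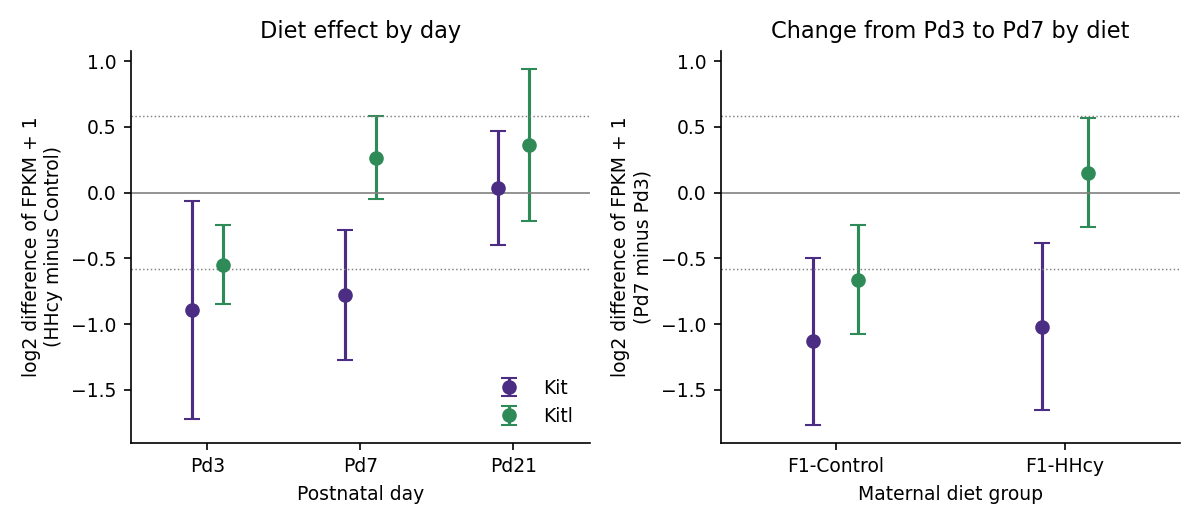
Fitted log2 differences of FPKM + 1 for Kit (purple) and Kitl (green), with 95% intervals from limma; the left panel gives F1-HHcy minus F1-Control by day, the right panel Pd7 minus Pd3 by diet group, and dotted lines mark 0.58 in either direction. Kit sits below 0 at Pd3 and Pd7 (-0.89 and -0.78), while Kitl moves from -0.55 at Pd3 to 0.27 at Pd7.

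The balance of ligand to receptor was read as the ratio of FPKM values in each library. This ratio restates the values of Kit and Kitl, so its differences between diets are not independent of the diet effects above. At Pd3 the ratio of Kitl to Kit was 0.879, 0.978 and 0.766 in F1-Control and 1.96, 1.28 and 0.550 in F1-HHcy. F1-HHcy replicates 1 and 2 lay above all controls and replicate 3 below all of them. The log2 ratios, taken on FPKM + 1, differed by 0.34 between the diets (exact permutation test, two-sided p = 0.6, where 0.1 is the smallest that 3 against 3 libraries allow). At Pd7 the ratio was 0.953, 1.27 and 1.47 in F1-Control and 3.36, 2.67 and 1.91 in F1-HHcy, with no overlap. The mean log2 ratio rose from 0.27 ± 0.31 to 1.32 ± 0.39 (SD, n = 3 each), a difference of 1.05 with an exact permutation p of 0.1, the lowest the design can give. At Pd21 the ratio was 1.59, 1.69 and 2.58 in F1-Control and 2.37, 3.20 and 1.84 in F1-HHcy, with a log2 difference of 0.33 (exact permutation p = 0.3).

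**Figure D3:**
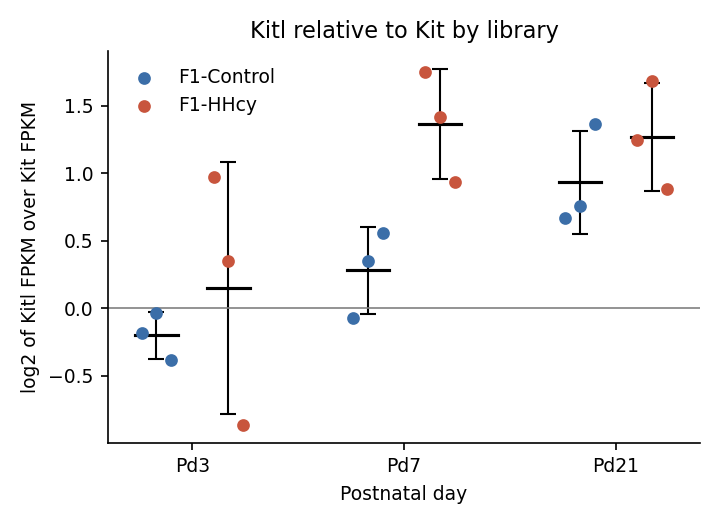
Log2 of Kitl FPKM over Kit FPKM in each library by postnatal day, with F1-Control in blue and F1-HHcy in red; points are libraries, lines the means and bars the SD of 3 libraries, and the grey line marks equal levels. At Pd7 the 3 F1-HHcy ratios (1.91 to 3.36 before taking logs) lie above the 3 F1-Control ratios (0.953 to 1.47).

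In whole ovaries, fewer cells of a type and less RNA per cell cannot be told apart, so each gene was also set against markers of the cell that carries it. The oocyte list held 12 genes, among them Ddx4 and Dazl of all oocytes and the zona pellucida genes Zp1, Zp2 and Zp3 of growing oocytes. At Pd3, 4 of the 12 were called higher and 2 lower, where 9.74% of all genes tested were called in either direction, and their sum was 1671 to 1914 FPKM in F1-Control and 1904 to 2713 in F1-HHcy. Kit minus the mean of these genes, on the log2(FPKM + 1) scale, was 0.065, -0.29 and -0.17 in F1-Control and -1.75, -1.49 and -0.41 in F1-HHcy. Every F1-HHcy library was below every control, a difference of -1.09 (exact permutation p = 0.1, the lowest possible). This mean pooled genes that went opposite ways. Germ cell genes of the list had log2 fold changes below 0 at Pd3, as Kit had with -0.89, with Dazl (-1.18) and Stk31 (-0.90) called lower and Ddx4 (-0.56), Mael (-0.84), Sycp3 (-1.26) and Dppa3 (-0.42) not called. Genes of growing oocytes went up, with Oosp1 (3.28), Zp1 (0.82), Zp2 (1.14) and Zp3 (1.15) called higher and Ooep (0.52) and Nlrp5 (0.61) not called. The groups were split by direction after the values were seen. The value of Kit lay inside the range of the 6 germ cell genes, which that split made likely for a gene that fell. Kit was not tested against them alone. At Pd7, 10 of the 12 markers were called lower and 1 higher, beside 16.4% of all genes called in either direction, with sums of 2162 to 3713 FPKM in F1-Control and 1233 to 1566 in F1-HHcy. Kit relative to them was then -1.22, -2.25 and -1.63 in F1-Control and -1.74, -1.51 and -1.22 in F1-HHcy, which overlapped (difference 0.21, exact permutation p = 0.7). The log2 fold change of Kit at Pd7, -0.78, thus stood beside a median of -0.98 in the oocyte list and of -0.0015 over all genes tested. At Pd21 the difference was -0.10 (exact permutation p = 0.2), and none of the 12 markers passed limma's call, an unadjusted p under 0.05 or the call by limma-voom.

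Granulosa markers were higher at Pd3, where Kitl was lower. Of 12 genes in the list, among them Foxl2, Amh and the inhibin subunit Inha, 9 were tested at Pd3 and 6 were called higher (9.74% of all genes in either direction), with a median log2 fold change of 1.52 (-0.031 over all genes). Their sums were 273 to 299 FPKM in F1-Control and 399 to 847 in F1-HHcy. Kitl minus the mean of the 9 was 1.94, 1.76 and 1.36 in F1-Control and -0.77, -0.12 and 0.29 in F1-HHcy, with no overlap and a difference of -1.89 (exact permutation p = 0.1, the lowest possible). Kitl itself differed by -0.55 on this scale, and the rest of the difference was the rise of the markers. The measure thus restates the diet effects on Kitl and on the markers and is not independent of them. The 9 did not move as 1, however. Amh (3.47), Hsd17b1 (2.18), Slc18a2 (1.94), Inha (1.78), Gja1 (1.52) and Nr5a2 (1.39) were the 6 called higher, on the log2 scale, while Foxl2 had 0.10, Fst -0.077 and Amhr2, the receptor of AMH, -0.24. Foxl2 stood at a mean of 55.7 FPKM in F1-Control and 60.0 in F1-HHcy. At Pd7, 9 of 12 granulosa markers were called higher (median 1.01), beside 16.4% of all genes called in either direction, and Kitl minus their mean was 1.10, 0.81 and 0.22 against 0.36, 0.14 and -0.19, which overlapped (difference -0.61, exact permutation p = 0.2). At Pd21 the difference was 0.18 (exact permutation p = 0.5).

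**Figure D4:**
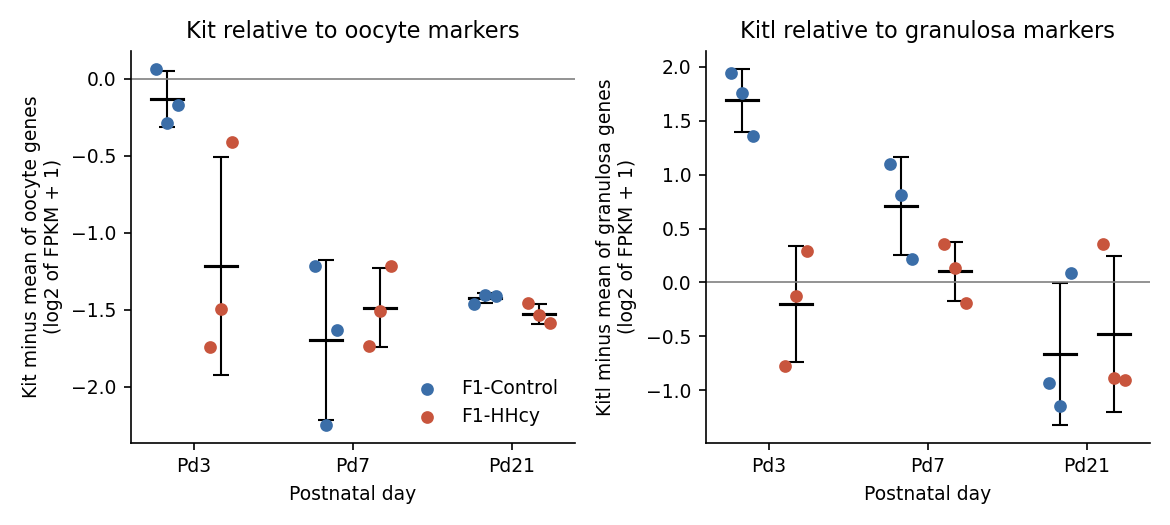
Kit minus the mean of oocyte markers (left) and Kitl minus the mean of granulosa markers (right), on the log2(FPKM + 1) scale, in each library by postnatal day, with F1-Control in blue and F1-HHcy in red; points are libraries, lines the means and bars the SD of 3 libraries. Both measures are lower in every F1-HHcy library than in every control at Pd3, and the diets overlap at Pd7 and Pd21. A measure also falls where its markers rise.

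Markers of other cells were read beside these values. Of all genes tested, 9.74%, 16.4% and 5.14% were called in either direction at Pd3, Pd7 and Pd21. Of the cells that can carry Kit, mast cells had markers that summed to 40.5 to 63.0 FPKM in F1-Control and 14.6 to 43.6 in F1-HHcy at Pd7, where 4 of the 5 tested were called lower and Hdc, the histidine decarboxylase, was called higher. None of these lower calls passed with the adjusted p. Those of Cma1 and Mcpt4 were lost without F1-Control replicate 2 or without F1-HHcy replicate 3, the library with the sum of 14.6 FPKM. The genes of this list differed widely in level. Fcer1a, a chain of the IgE receptor, was at 0 in 9 of the 18 libraries and at 0.138 FPKM or less in the others. Ms4a2, another chain, was at 0.175 FPKM or less. The proteases Cpa3, Mcpt4, Cma1 and Tpsb2 had means of 6.70 to 13.8 FPKM in F1-Control and 8.93 to 16.3 in F1-HHcy at Pd3. At Pd7 these means were 9.01 to 14.0 FPKM in F1-Control and 4.61 to 7.71 in F1-HHcy. At Pd3 the sums were 42.9 to 51.1 and 56.7 to 60.5 FPKM, and none of the 5 was called, had an unadjusted p under 0.05 or was called by limma-voom. At Pd21, where the levels of Kit overlapped, the sums were 33.9 to 110 FPKM in F1-Control and 8.33 to 17.3 in F1-HHcy, and 4 of the 5 were called lower. Most of the F1-Control sum was Hdc, with means of 55.5 FPKM in F1-Control and 6.24 in F1-HHcy. The means of Cpa3, Mcpt4, Cma1 and Tpsb2 lay between 2.48 and 5.03 FPKM in F1-Control and between 0.853 and 2.13 in F1-HHcy. Theca and steroidogenic markers were called higher in 7 of 8 at Pd7, with sums of 237 to 473 FPKM in F1-Control and 1181 to 1233 in F1-HHcy. Insl3, with Pd7 means of 0.203 FPKM in F1-Control and 3.29 in F1-HHcy, passed the filter only through F1-HHcy and could only come out higher. At Pd3 the sums were 114 to 169 and 87.4 to 712 FPKM. None of the 4 theca markers tested at Pd3 and of the 7 at Pd21 was called, had an unadjusted p under 0.05 or was called by limma-voom. Melanocyte markers were near 0 throughout, with sums of 0.685 to 1.35 FPKM in all libraries and no gene past the filter, and Tyr, the tyrosinase of pigment cells, was at 0 in 9 libraries. Red blood cell genes summed to 4057 to 11940 FPKM in F1-Control and 802 to 1112 in F1-HHcy at Pd3, and all 8 were called lower. Stroma markers summed to 827 to 1111 FPKM in F1-Control and 1507 to 1832 in F1-HHcy at Pd3, with 7 of 8 called higher, and 4 of 7 endothelial markers were called higher on that day. Surface epithelium markers were called lower in 4 of 7 at Pd7 and in 6 of 7 at Pd21. The part of these cells in the values of Kit and Kitl was not tested.

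Of the oocyte factors that act upstream of Kit or beside it, all those called lower were transcription factors of the primordial follicle, and those called higher were growth factors of the growing oocyte. Gdf9 was called at Pd3 only and Bmp15 at Pd3 and Pd7. The list held the transcription factors Sohlh1, Sohlh2, Lhx8, Nobox and Figla, needed to form or wake primordial follicles, and the growth factors Gdf9 and Bmp15, which the growing oocyte sends to granulosa cells. At Pd3 3 of the 7 were called lower and 2 higher, and at Pd7 5 were called lower and 1 higher. The median log2 fold change was -0.71 at Pd3 and -1.18 at Pd7. Over all genes tested, 9.74% were called in either direction at Pd3 and 16.4% at Pd7.

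Sohlh1 measured 92.5, 89.8 and 96.5 FPKM in F1-Control at Pd3 and 18.7, 42.7 and 67.9 FPKM in F1-HHcy. Its log2 difference of -1.27 (SE 0.40, adjusted p = 0.122, limma) shrank to -0.77 without F1-HHcy replicate 1. Its F1-HHcy libraries stood in the same order as those of Kit, with replicate 1 lowest and replicate 3 nearest to the controls. At Pd7 Sohlh1 was at 51.7, 66.6 and 28.6 FPKM in F1-Control and at 5.61, 7.33 and 6.52 FPKM in F1-HHcy. This log2 fold change was -2.66 (SE 0.26, adjusted p = 0.00121, limma), the largest fall in the list.

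Sohlh2, its partner, showed the same order at Pd3, with 14.8, 14.6 and 13.6 FPKM in F1-Control and 2.90, 5.67 and 14.7 FPKM in F1-HHcy. F1-HHcy replicate 3 again lay at the control level, and the log2 fold change of -1.05 (SE 0.44, adjusted p = 0.215, limma) was called only by unadjusted p and size. That call was lost on leaving out any library other than F1-HHcy replicate 3 (-0.58 without replicate 1), and the value became -1.59 once replicate 3 was set aside. At Pd7 it was -1.94 (adjusted p = 0.00138, limma). Lhx8, a LIM homeobox factor, stood at -1.11 on the same scale at Pd3 (adjusted p = 0.0711, limma) and at -0.97 at Pd7 (adjusted p = 0.0263, limma).

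Nobox, a homeobox factor, and Figla, which drives the zona pellucida genes, were called at Pd7 and not at Pd3. Nobox ranged from 42.4 to 117 FPKM in F1-HHcy at Pd3, around the controls at 72.8 to 85.8, and its log2 fold change was -0.21. At Pd7 it was -1.18 (adjusted p = 0.0153, limma). Figla had a log2 fold change of -0.71 at Pd3 with an unadjusted p of 0.0742, and of -2.17 at Pd7 (adjusted p = 0.00310, limma). The test of the difference between Pd3 and Pd7 gave -1.47 for Figla (adjusted p = 0.193, limma), which held its call by unadjusted p and size without any 1 library. For Nobox it gave -0.97 (adjusted p = 0.335, limma), lost on leaving out any of 6 libraries (-0.58 without F1-HHcy replicate 3 at Pd3).

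Gdf9 measured 33.5, 35.0 and 52.3 FPKM in F1-Control at Pd3 and 215, 168 and 83.9 FPKM in F1-HHcy. All F1-HHcy libraries were above the controls, as for 11.8% of the genes tested, in the order opposite to Kit, with a log2 difference of 1.85 (SE 0.34, adjusted p = 0.0388, limma). Bmp15 went from 1.17, 0.707 and 1.80 to 34.0, 20.1 and 3.70 FPKM in the same libraries, a log2 difference of 2.79 (SE 0.66, adjusted p = 0.0644, limma), and had 1.82 at Pd7 (adjusted p = 0.0030, limma). At Pd7 Gdf9 was not called, with means of 200 FPKM in F1-Control and 226 FPKM in F1-HHcy. Its diet effect differed between Pd3 and Pd7 by -1.62, called by unadjusted p and size without any 1 library. That of Sohlh1 differed by -1.40, a call lost without F1-HHcy replicate 3 at Pd3 or F1-Control replicate 2 at Pd7. Bmp15 (-0.97), Sohlh2 (-0.90) and Lhx8 (0.14) had no called difference. At Pd21 none of the 6 tested genes of the list was called, had an unadjusted p under 0.05 or was called by limma-voom.

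Within the receptor family to which Kit belongs, the class III receptor tyrosine kinases, the diet effects went in different directions. Pdgfra, the platelet-derived growth factor receptor of stroma and theca precursors, stood at 8.34, 11.6 and 11.6 FPKM in F1-Control at Pd3 and at 46.1, 42.5 and 32.0 FPKM in F1-HHcy. The F1-HHcy libraries were all far above the controls, with a log2 difference of 1.83 (SE 0.18, adjusted p = 0.0142, limma). Pdgfrb, its relative on perivascular cells, rose by 1.07 at Pd3 (adjusted p = 0.0285, limma) and by 0.86 at Pd7 (adjusted p = 0.0184, limma). Csf1r, the receptor of macrophages, had 0.34 at Pd3, under the size criterion. Flt3, a receptor of blood progenitors, was at 0.0619 FPKM or less in all 18 libraries and was not tested.

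Among the ligands of the family, Kitl was the most abundant at every day and diet. Csf1, the macrophage growth factor, was called higher at Pd3 with 0.841, 1.08 and 1.51 FPKM in F1-Control and 3.12, 2.88 and 2.10 FPKM in F1-HHcy (log2 fold change 0.79, adjusted p = 0.0617, limma). Il34, the other ligand of Csf1r, and Pdgfa were called lower at Pd7 (-0.94, adjusted p = 0.0188, and -0.76, adjusted p = 0.0167, limma). Flt3l, the ligand of Flt3, was called higher at Pd7 (0.74, adjusted p = 0.0245, limma). Pdgfb was called on no day, with 0.37, 0.11 and 0.14 at Pd3, Pd7 and Pd21. The calls of the family named here, other than those of Kit, held on leaving out each library of the day.

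**Figure D5:**
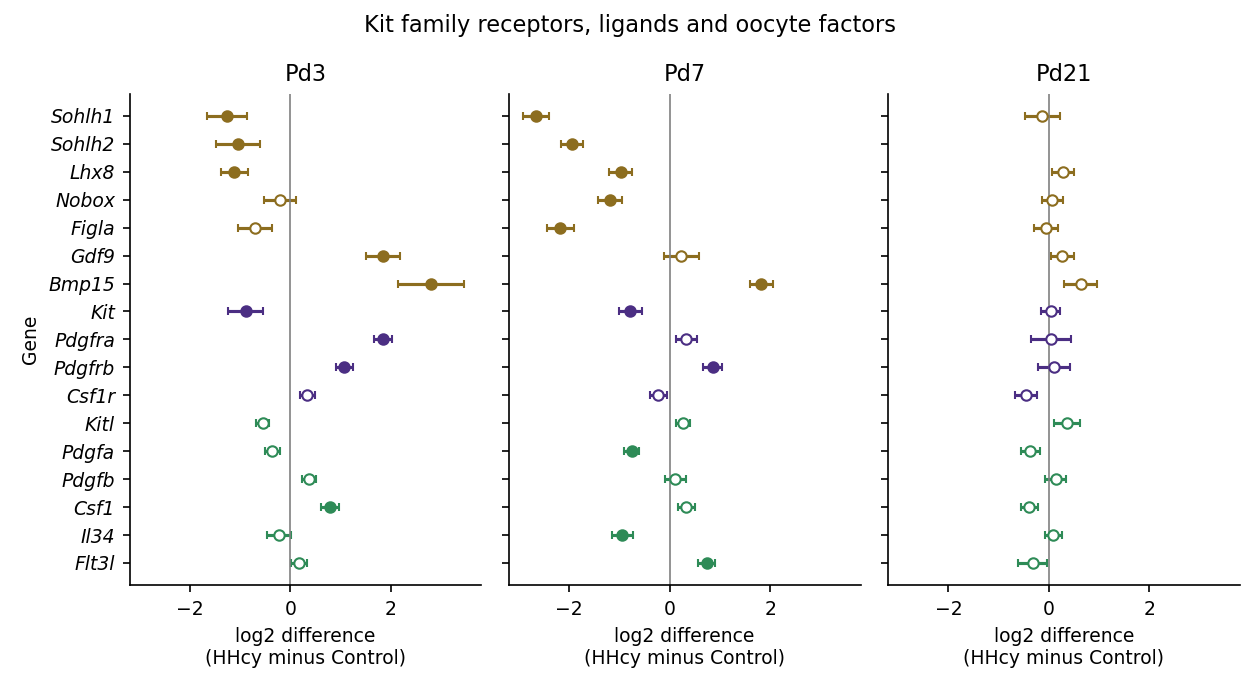
Log2 difference of FPKM + 1, F1-HHcy minus F1-Control, at Pd3, Pd7 and Pd21 for oocyte factors (brown), class III receptors (purple) and their ligands (green); bars are the SE from limma on 6 libraries, filled points passed the call by unadjusted p and size, and a missing point was not tested. Kit falls with Sohlh1, Sohlh2 and Lhx8 at Pd3 and Pd7, while Pdgfra and Pdgfrb rise at Pd3 (1.83 and 1.07), and no gene is called at Pd21.

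Without Kit and Kitl, 68 genes of all 9 pathway lists, from receptors and ligands to oocyte factors and downstream genes, were tested at Pd3, with 6 called higher and 5 lower. That is 16.2% of them, beside 9.74% of all genes. At Pd7 69 were tested, with 4 higher and 9 lower, or 18.8% beside 16.4% of all genes. Leaving out F1-HHcy replicate 1 took the lower genes at Pd3 to 3, and leaving out F1-HHcy replicate 3 took them to 8. At Pd21 none of 69 was called by limma, while 2 had an unadjusted p under 0.05 and limma-voom called 1.

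The 5 lists downstream of the receptor (adaptors and Src-family kinases, negative regulators, PI3K and AKT, the mTOR complex 1 arm, and RAS and MAPK) had 51 genes tested at Pd3 and 52 at Pd7, with 1 called higher and 2 lower on each day, all in the PI3K and AKT list. These are 5.88% and 5.77% of them, less than the 9.74% and 16.4% of all genes tested that were called on these days. The other calls of the 9 lists were of receptors, ligands and oocyte factors. In the PI3K and AKT list, Pik3cd, a catalytic PI3K subunit, was called higher and Pik3r3, a regulatory subunit, and Cdkn1b, the cell cycle inhibitor p27, were called lower at both Pd3 and Pd7. Cdkn1b measured 130, 142 and 101 FPKM in F1-Control at Pd3 and 41.2, 69.6 and 82.2 FPKM in F1-HHcy, in the library order of Kit (log2 fold change -0.98, adjusted p = 0.0818, limma). At Pd7 it was -0.71 (adjusted p = 0.0666, limma), and -0.46 and no longer called without F1-Control replicate 1. Pik3r3 had -0.78 at Pd3 (adjusted p = 0.104, limma), lost without F1-HHcy replicate 1 (-0.52), and -0.87 at Pd7 (adjusted p = 0.0120, limma). Pik3cd rose by 0.77 at Pd3 (adjusted p = 0.0638, limma) and by 0.94 at Pd7 (adjusted p = 0.0201, limma). Akt1, the most abundant kinase of the list, had log2 fold changes of 0.065, -0.18 and -0.11 at Pd3, Pd7 and Pd21.

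Transcripts of the adaptors and Src-family kinases (12 tested), the negative regulators (8 to 10 tested), the mTOR complex 1 arm (9) and RAS and MAPK (9) had no call by limma on any day. An unadjusted p under 0.05 was common among all genes. That of Kit at Pd3 (0.0383, limma) ranked 2572 from the smallest of 13277, and that at Pd7 (0.00548, limma) 1527 of 13299. The counts below were not tested against the share of all genes. At an unadjusted p under 0.05, 3 adaptor or kinase genes at Pd3 and 1 each at Pd7 and Pd21 were found, and limma-voom called 0, 1 and 1 of them. The negative regulators had 1, 1 and 0 genes by unadjusted p, with 0, 2 and 0 calls by limma-voom. The mTOR complex 1 arm had 0, 2 and 0 and RAS and MAPK 1, 1 and 0 by unadjusted p, with no call by limma-voom. Ptpn11, the phosphatase SHP2 that binds active Kit, had a log2 fold change of -0.0043 at Pd3, and Rps6, the ribosomal protein read out as a phosphoprotein for mTOR complex 1, of 0.20. RNA levels say nothing of the phosphorylation of these proteins. Adam17 and Adam33, proteases that can cut Kitl from the membrane, had 0.20 and -0.035 at Pd3 and 0.16 and 0.17 at Pd7, with no unadjusted p under 0.05 and no call by limma-voom on any day.

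The genes whose pattern was most like that of Kit were found by Pearson's r of log2(FPKM + 1) over the 18 libraries, among 14607 genes. They were Map3k9 (r = 0.98), Trp63 (0.98), Tdrd1 (0.98), Arl14epl (0.98) and Reep1 (0.98), and the 18 points share day, batch and diet within each group of 3. Trp63, a relative of p53, stood at 13.6, 12.9 and 13.3 FPKM in F1-Control at Pd3 and at 3.19, 5.83 and 12.5 FPKM in F1-HHcy. Tdrd1, a germ cell gene of the piRNA pathway, was at 43.2, 36.2 and 42.8 against 15.2, 22.0 and 37.4 FPKM. Both were picked for their likeness to Kit over these same libraries. That they share the order of its F1-HHcy libraries is therefore no separate evidence. With each value taken as the deviation from its group mean, the first 5 were Map3k9 (0.96), Ndrg4 (0.94), Jag2 (0.93), Trp63 (0.93) and Tle4 (0.92). The F1-HHcy libraries at Pd3 weighed most in these values. The SD of Kit FPKM was 55.8% of the mean in that group and 7.26% to 28.3% in the others. Sohlh2 had 0.82, Nobox 0.78 and Bmp15 -0.64 on the centred values.

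Kitl had no partner as close. Over the 18 libraries the highest values were Hacd3 (0.80), Sec24a (0.79), Fmnl2 (0.78), Dhx36 (0.78) and Myo1a (0.77), and on centred values Gask1b (0.87), Cpd (0.85), Trp53inp2 (0.85), Tm9sf2 (0.84) and Snx13 (0.84). Kit and Kitl themselves had r = 0.38 over the 18 libraries and 0.050 on the centred values. The 12 granulosa markers had a median of -0.35 with Kitl over the 18 libraries and -0.084 on centred values, and the 8 theca and steroidogenic markers 0.086 and 0.52.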

How the data were processed

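Poly-A libraries of whole ovary RNA, stranded per the labels, were compared between diets at each day. The submitters' processing notes name FastQC 0.11.9, Trimmomatic 0.39, STAR 2.7.9a and featureCounts 2.0.1 with GRCm38/mm10, in no stated order. The authors deposited 1 linear value per gene symbol and library, whose unit is not named in the files. As deposited by the authors, the values behave as FPKM, already scaled by gene length and library total, because dividing out 1 gene length and 1 library total left whole fragments, within 0.05 of a fragment, for all 27294 genes above 0 in 3 or more libraries.

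A gene entered a fit if 3 or more of its libraries reached 1 FPKM, which left 13277, 13299 and 13350 genes at Pd3, Pd7 and Pd21. Values were log2(FPKM + 1), and limma (version 3.58.1, under R 4.3.3) fitted them with a variance trend. A pseudocount of 1 understates changes of low genes. Differences between days and the Pd3 to Pd7 changes came from a single model of 6 groups. The fit was tested on simulated data. Single values were compared by exact two-sided permutation over libraries. Tables were made in Python 3.11.15 with pandas 2.3.3 and numpy 2.4.6, and plots with matplotlib 3.10.9.

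The members, gene lists, tests and alternatives were chosen with earlier results of these data known. Named are Kit and Kitl, every gene of the receptor, ligand and oocyte factor lists, of each other list the 2 most abundant genes and up to 2 called genes per day with the smallest p, and the 5 genes most like each member. Sequence letters and coordinates come from GENCODE vM21. The other oocyte and granulosa markers were named, and split by direction, after their values were seen. Insl3 was likewise named after its values were seen. Alternatives were a pseudocount of 0.1, no filter, median-ratio scaling, no mitochondrial or hemoglobin genes, the replicate number as a block, adjusted p, all libraries in 1 model and each library left out. limma-voom on the recovered fragments was added after seeing the data. Deviations from the group means in same-numbered libraries of the 2 diets had r from -0.31 to 0.085. Between Pd3 and Pd7, same-numbered libraries had r from 0.12 to 0.26 in F1-Control and from -0.018 to 0.12 in F1-HHcy. These values were not tested. There was no source for a pairing beyond the number.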

Additional observations from a re-analysis of the deposited data

Results flagged for a closer look

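The diet effect was called different between days for 3 results, by unadjusted p and size in the limma test of the difference itself on all 18 libraries. For Kitl between Pd3 and Pd7 the difference was 0.81 on the log2 scale (adjusted p = 0.222, limma), and all F1-HHcy libraries were below the controls at Pd3 and above them at Pd7. For Kitl between Pd3 and Pd21 it was 0.91 (adjusted p = 0.0795, limma), and for Kit between the same days 0.93 (adjusted p = 0.293, limma). None of the 3 passed with the adjusted p, and in the comparisons with Pd21 age and batch cannot be told apart.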

How the results depend on the processing

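Under the adjusted p, the Pd3 diet effect on Kit (-0.89), the differences between days for Kitl (0.81 for Pd3 and Pd7, 0.91 for Pd3 and Pd21) and for Kit (0.93 for Pd3 and Pd21), and the Pd3 to Pd7 change of Kit in F1-HHcy (-1.02) no longer passed. Without a filter on low values, the Pd3 effect on Kit (-0.89, unadjusted p = 0.0645) and its difference between Pd3 and Pd21 (0.93, unadjusted p = 0.0611) were lost, and with median-ratio scaling the difference for Kit between Pd7 and Pd21 (0.89, unadjusted p = 0.0423) passed. The cause was not tested. The replicate number as a block, a pseudocount of 0.1, leaving out mitochondrial and hemoglobin genes and limma-voom changed no call of Kit or Kitl by unadjusted p and size. The adjusted p of the Pd7 effect on Kit (0.0477, limma) was 0.0399 with the block, 0.0421 with median-ratio scaling and 0.0448 without mitochondrial and hemoglobin genes, but 0.0528 with a pseudocount of 0.1, 0.0567 with limma-voom, 0.0943 with all 18 libraries in 1 model and 0.152 without a filter. Leaving out each library it ran from 0.0354 to 0.165 (limma), above 0.05 without replicate 1 or 2 of either diet.

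Leaving out each library in turn, the diet effect on Kit ran from -1.30 to -0.49 at Pd3, -0.97 to -0.56 at Pd7 and -0.13 to 0.19 at Pd21, and on Kitl from -0.64 to -0.46, 0.18 to 0.34 and 0.19 to 0.60. The differences between Pd3 and Pd7, Pd3 and Pd21, and Pd7 and Pd21 ran from -0.29 to 0.52, 0.52 to 1.33 and 0.60 to 1.00 for Kit and from 0.72 to 0.91, 0.73 to 1.15 and -0.080 to 0.33 for Kitl. The Pd3 to Pd7 change ran from -1.35 to -1.0 (Kit) and -0.74 to -0.61 (Kitl) in F1-Control and from -1.42 to -0.61 and 0.063 to 0.25 in F1-HHcy. The log2 ratio of Kitl to Kit ran from -0.053 to 0.84 at Pd3, 0.86 to 1.25 at Pd7 and 0.13 to 0.54 at Pd21. Kit relative to oocyte markers ran from -1.49 to -0.82, -0.065 to 0.45 and -0.14 to -0.070, and Kitl relative to granulosa markers from -2.14 to -1.60, -0.85 to -0.41 and -0.24 to 0.56. Kit rested on at least 2674 and Kitl on at least 6305 fragments in a library, and depth was not varied.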
